A study of Mus musculus with 24 samples.

Results

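The genes described here are the mouse genes for the proteins of the cytosolic ribosome. They were taken from the deposited count table by 2 conditions, a protein-coding biotype and a gene name of the Rps, Rpl, Rplp or Rpsa series, so that ribosomal protein pseudogenes were left out. The rule found 84 of 43346 genes, 32 for the small subunit (40S) and 52 for the large subunit (60S), and used no measured value. The libraries are poly-A RNA-seq of whole cortex from 24 C57BL/6 mice, 6 in each of 4 groups, each with 3 males and 3 females. The mice carry either TREM2-WT+/+ or TREM2-R47H+/+, and every mouse in all 4 groups also carries Cx3cr1CreER/+, a tamoxifen-dependent recombinase expressed from a microglial and macrophage promoter. In each genotype, the induced mice received tamoxifen to switch on TREM2 in microglia, and the control mice received the vehicle, corn oil. TREM2 is a surface receptor of microglia that binds lipids, and R47H is a variant associated with Alzheimer's disease. The 4 groups are called WT control, WT induced, R47H control and R47H induced below. No tamoxifen-treated mice without the inducible gene were analysed here, so tamoxifen and induction cannot be told apart, and R47H and WT are separate lines. The labels give neither an age nor the sex of each mouse.

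A ribosome joins a small subunit, which decodes the mRNA, to a large subunit, which forms the peptide bond, and each is built from ribosomal RNA and a set of proteins. Most of these proteins are present once per ribosome, and their genes are expressed in nearly every cell, neurons and microglia included. Many of their mRNAs begin with a run of pyrimidines, the terminal oligopyrimidine tract, through which the mTOR kinase and the RNA-binding protein LARP1 control their translation. That control acts on translation and need not show in mRNA levels. Ribosomal protein genes have also left many processed pseudogenes, intronless copies of their mRNAs elsewhere in the genome, whose reads are hard to assign.

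Total counts ran from 27933505 to 56082520 per library, and levels below are CPM, counts relative to the library total after scaling for composition. Some features of the libraries moved with the groups. Yam1, AY036118 and Lars2, which collect ribosomal RNA reads, together took a median of 16.1% in WT control, 17.9% in WT induced, 20.7% in R47H control and 16.7% of counts in R47H induced mice, with overlapping ranges from 11.5% to 24.4%. Cortical excitatory neuron markers summed to 3590 to 4500 CPM, and none of the 12 was at 0. The 9 striatal markers found in the table summed to 1430 to 1650 CPM in WT and 1270 to 1450 CPM in R47H libraries, and the 8 choroid plexus markers to 18.3 to 394 CPM and 20.4 to 639 CPM. WT induced replicate 6 stood apart, with 474 CPM of microglial markers against at most 340 CPM in any R47H library, and with the highest leukocyte marker sum of all libraries, 29.3 CPM. The 13 interferon response markers summed to 47.4 to 221 (median 68.8) CPM in WT induced libraries. Their sums were 48.2 to 60.4 CPM in WT control, 43.1 to 54.9 CPM in R47H control and 43.4 to 52.6 CPM in R47H induced libraries. In induced mice, 8 of the 13 were called lower in R47H than in WT, against 3.22% of all genes. Trem2 averaged 6.40 ± 0.367 CPM in WT control, 6.61 ± 1.43 CPM in WT induced, 7.89 ± 0.974 CPM in R47H control and 6.62 ± 0.534 CPM in R47H induced mice (mean ± SD, n = 6). Whether tissue makeup has a part in the differences below was not tested. In whole tissue, fewer cells of a type and less RNA per cell cannot be told apart.

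The summed level of the ribosomal protein genes was nearly the same in all groups. Their mean share of raw counts was 0.432% in WT control, 0.431% in WT induced, 0.422% in R47H control and 0.445% in R47H induced mice. All 84 genes together gave 4244 ± 97.7 CPM in WT control, 4347 ± 131 CPM in WT induced, 4321 ± 86.4 CPM in R47H control and 4388 ± 83.5 CPM in R47H induced mice (mean ± SD, n = 6 in each). The ranges of the 4 groups overlapped, from 4128 CPM in the lowest WT control library to 4547 CPM in the highest R47H induced library. By mean level, 7 members exceeded 100 CPM, 71 lay between 10 and 100 CPM, and 6 were below 10 CPM. The 10 highest members held 33.5% of the summed level. Of the 84, 82 passed the low-count filter and were tested, and those not tested were Rpl10l, with 0 counts in all 24 libraries, and Rpl39l, with 48 counts in all. Both are copies that are known for expression in the testis.

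Read per length, the counted levels of the members spanned a wide range. The sources used here do not say how reads that fit both a member and a pseudogene were counted. The part of this in the levels below was not tested. Per kb of summed exon length, the highest were Rplp1 at 300.3 CPM, Rpl4 at 208 CPM, Rps27 at 194 CPM, Rpl8 at 166 CPM and Rps15 at 164 CPM, against a median of 29.9 CPM per kb over the 82 tested. RPLP1 is a protein of the acidic stalk that recruits translation factors, and RPL4 and RPL8 are core proteins of the large subunit. The lowest were Rpl3l at 0.162, Rps28 at 5.71, Rps4l at 6.34, Rps27l at 6.90 and Rpl27 at 7.11 CPM per kb. The order leaned on the length used. Per kb of the principal transcript alone, Rps28 stood at 30.9 CPM and Rps19 at 58.3 CPM rather than 7.88 CPM, and the orders under the 2 lengths had a Spearman rho of 0.638 over 81 members, a description across genes.

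**Figure D1:**
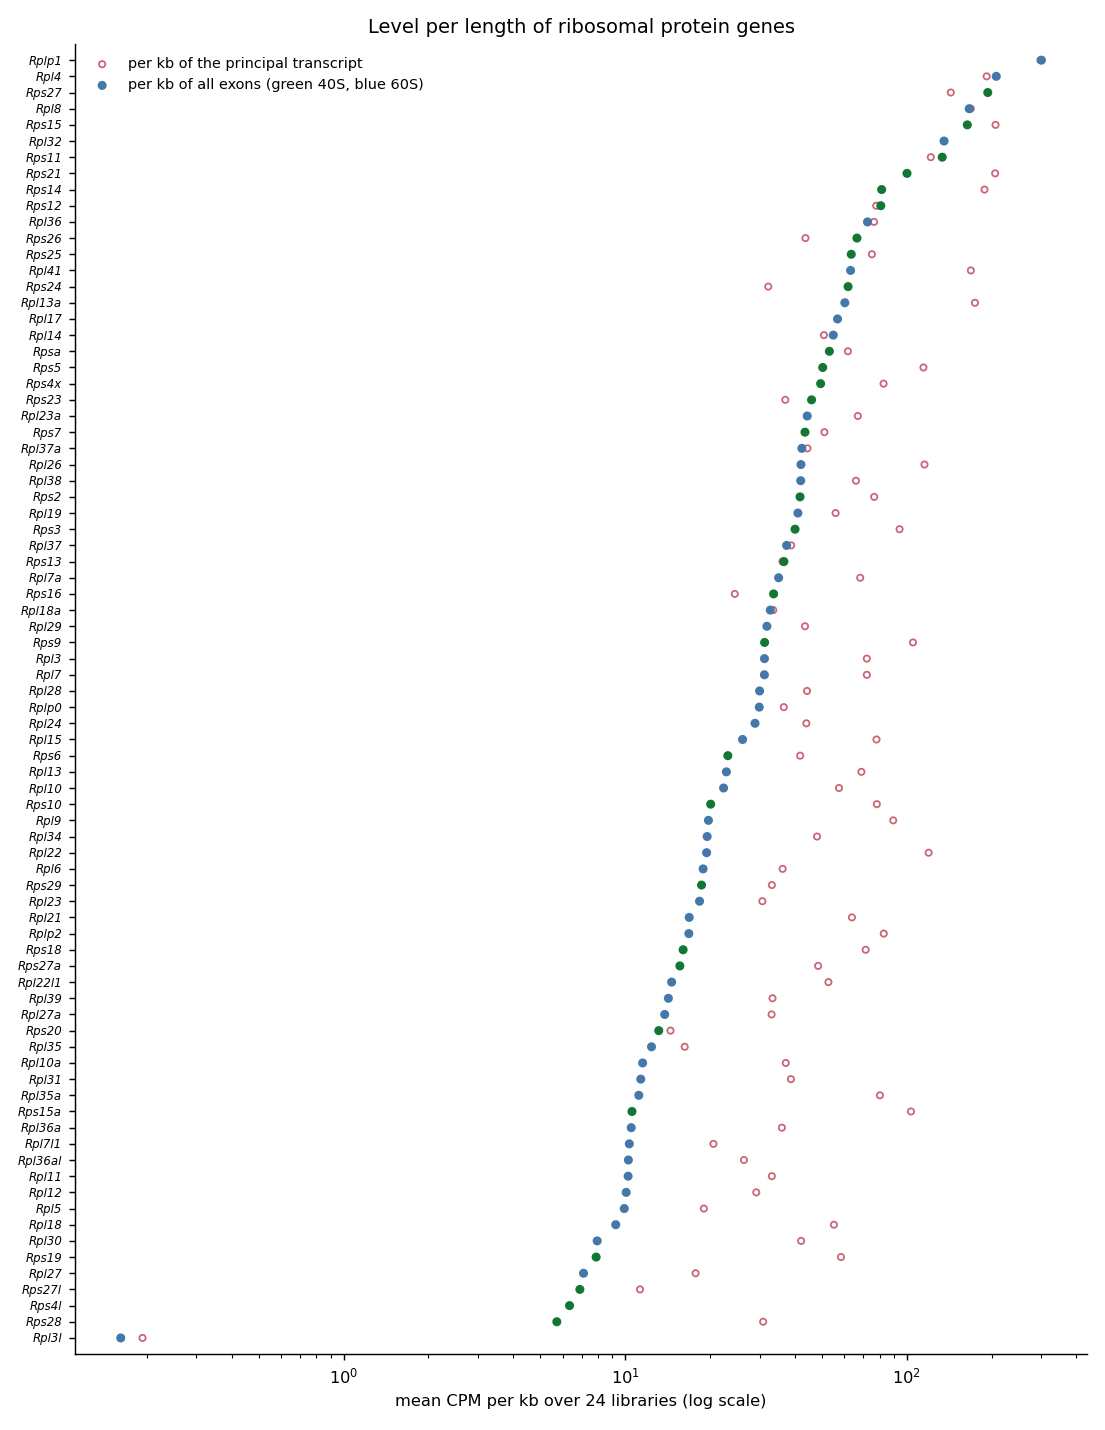
Mean level per kb of 80 of the 82 tested ribosomal protein genes over 24 libraries, on a log axis in CPM per kb. Filled points divide by the summed exon length (green for 40S, blue for 60S) and open points by the principal transcript, and Rplp1 is highest and Rpl3l lowest on both.

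The 3 genes of the acidic stalk differed in level, by an amount that depended on the length. Rplp1 stood at 300.3 CPM per kb of exon, Rplp0, which anchors the stalk to the large subunit, at 29.9, and Rplp2, the partner of Rplp1, at 16.8. Per kb of the principal transcript the values were 298, 36.5 and 82.8 CPM, so Rplp1 was highest on both scales and the order of the other 2 turned. Rpl5 and Rpl11, which travel with 5S rRNA and can bind MDM2, had 9.92 and 10.2 CPM per kb of exon. Rps6, the substrate of S6 kinase, had 23.1 CPM per kb of exon, Rps19, the human gene of which is often mutated in Diamond-Blackfan anaemia, 7.88, and Rpsa, also known as a laminin receptor, 53.1.

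Rps6, Rps19, Rpl5 and Rpl11 had overlapping levels in all groups. Rps6 ran from 34.0 to 37.7 (median 35.9) CPM in WT control, 35.0 to 40.2 (median 37.5) CPM in WT induced, 35.3 to 38.0 (median 37.0) CPM in R47H control and 34.6 to 37.7 (median 36.7) CPM in R47H induced mice. Rps19 ran from 33.5 to 36.7 (median 35.6), 35.1 to 40.4 (median 37.0), 34.9 to 38.9 (median 37.4) and 36.9 to 39.9 (median 37.3) CPM in the groups in the same order. These ranges overlapped, and neither gene was called in any comparison. The ranges of the 5S partners overlapped as well. Rpl5 ran from 37.3 to 42.6 (median 40.1), 36.4 to 40.8 (median 39.97), 34.0 to 40.5 (median 36.8) and 33.9 to 44.5 (median 38.5) CPM, and Rpl11 from 25.2 to 29.3 (median 27.0), 24.6 to 29.0 (median 27.6), 26.5 to 29.5 (median 27.4) and 27.0 to 29.8 (median 27.96) CPM. Rpl5 had the lower values in R47H control mice, a log2 difference of −0.12 from WT control (edgeR adjusted p = 0.174). Rpsa, at 98.1 ± 3.27, 102 ± 5.35, 97.0 ± 2.35 and 97.7 ± 3.71 CPM, and Rps4x, at 79.9 ± 3.15, 80.8 ± 3.27, 79.5 ± 1.06 and 81.9 ± 4.38 CPM (mean ± SD, n = 6), had no call either.

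The second copies of ribosomal protein genes were counted in cortex at very different levels. The limits given above, for the length used and for reads that also fit a pseudogene, hold here too. Per kb of exon, Rpl22l1 reached 14.6 CPM beside 19.4 CPM of Rpl22, and Rpl36al 10.3 CPM beside 10.5 CPM of Rpl36a. Rpl7l1 stood at 10.3 CPM per kb and Rpl7 at 31.2. Larger gaps separated Rps4l, at 6.34 CPM per kb, from the X-linked Rps4x, at 49.4, and Rps27l, at 6.90, from Rps27, at 194. Rpl3l, the striated muscle copy of Rpl3, had 0.162 CPM per kb, from 249 counts in all 24 libraries, beside 31.2 of Rpl3. Over all genes, edgeR called 0% in the inductions and their difference, and between the lines 5.80% in induced and 5.74% in control mice. In the 5 comparisons, none of the 6 tested second copies passed edgeR's test. The closest was Rpl3l in induced mice, at 0.273 to 0.410 (median 0.378) CPM in WT and 0.0838 to 0.275 (median 0.214) CPM in R47H mice, ranges that overlapped. Its log2 difference was −0.87 (SE 0.28, edgeR adjusted p = 0.0602, two-sided exact permutation p = 0.00433). Rpl3l passed with limma-voom (adjusted p = 0.0454) and without R47H control replicate 4 or R47H induced replicate 4 (edgeR adjusted p 0.0465 and 0.0445).

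No ribosomal protein gene passed the test for induction, in either genotype. In WT mice 0 of 82 members were called at an adjusted p below 0.05 by edgeR's quasi-likelihood test, against 0% of 19678 genes tested. In R47H mice the count was also 0, against 0% of all genes, and for the difference between the 2 inductions it was 0, against 0% of all genes. That difference was above 0 for 25 of 82 members, with a median of −0.03, and for 51% of all genes. At an unadjusted p below 0.05, edgeR gave 3, 4 and 1 of 82 members in these comparisons, against 7.85%, 5.11% and 7.94% of all genes, and DESeq2 and limma-voom called no member either.

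The induced WT mice nevertheless had slightly higher values for most members. The log2 difference of induced from control WT mice was positive for 65 of 82 members with a median of 0.04, while 50.9% of all genes were positive with a median of 0.00. In R47H mice 48 of 82 were positive with a median of 0.02, against 52.7% of all genes. Most members stayed close to no difference, since 78 of 82 in WT and 80 of 82 in R47H mice lay within 0.2 of 0 on the log2 scale. With library totals in place of composition scaling, the median in WT mice was 0.000587 and that in R47H mice 0.07, while the median over all genes moved to −0.04 and 0.06.

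Single members with a low p in WT mice had small differences or a wide spread. Rps20, a 40S gene, ran from 48.9 to 53.0 (median 52.3) CPM in WT control and from 51.4 to 56.8 (median 54.8) CPM in WT induced mice, a log2 difference of 0.08 (SE 0.03, edgeR adjusted p = 0.523). Rps4l showed the widest difference, 3.59 to 6.24 (median 4.60) CPM in control and 3.99 to 9.22 (median 6.36) CPM in induced WT mice, with a log2 difference of 0.50 (SE 0.20, edgeR adjusted p = 0.550). The groups overlapped for both genes.

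In R47H mice the lowest p belonged to Rplp2. Its level ran from 24.97 to 36.9 (median 34.7) CPM in R47H control and from 34.8 to 39.1 (median 36.9) CPM in R47H induced mice, a log2 difference of 0.18 (SE 0.07, edgeR adjusted p = 0.945). Rplp0 had the largest value, 0.46 (SE 0.22, edgeR adjusted p = 0.970). It ran from 27.5 to 50.8 (median 30.8) CPM in R47H control and from 31.6 to 69.0 (median 49.4) CPM in R47H induced mice, so the spread within each group was as wide as the difference. For Rplp0 the difference between the inductions was 0.61 (SE 0.31, edgeR adjusted p = 0.645). For Rps20 it was −0.09 and for Rps15 −0.08, and with library totals, which moved the median of all genes to 0.09 in this difference, they were 0.00345 and 0.02.

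In control mice, edgeR called 6 ribosomal protein genes higher in R47H than in WT cortex and none lower. These 6 are 7.32% of the 82 tested, and 5.74% of all genes were called in this comparison (2.69% higher and 3.04% lower). They were Rps15, Rps14, Rps21, Rps27, Rpl10 and Rpl23a, by log2 differences of 0.13 to 0.17, and 4 of them are 40S genes. RLE size factors, DESeq2 and limma-voom also called all 6 higher. DESeq2 called 9 members, adding Rpl13 as higher and Rplp0 (adjusted p = 0.0297) and Rpl6 (adjusted p = 0.0376) as lower, and limma-voom called 7, adding Rplp0 as lower. With library totals and no composition factor, which moved the median of all genes to −0.06, 0 members were higher and 4 lower (Rplp0, Rpl6, Rpl13a and Rpl24). The 6 then had log2 differences of 0.07 to 0.11 and adjusted p of 0.114 to 0.401. With the share of rRNA-like reads added to the model, 2 of the 6 were called, Rps15 (adjusted p = 0.0158) and Rpl10 (adjusted p = 0.0366), with 451 genes called in all.

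Of the 40S genes among them, 3 had no overlap between the lines and Rps14 had some. Rps15, which sits near the decoding centre, ran from 90.0 to 99.1 (median 97.8) CPM in WT control and from 104 to 112 (median 108) CPM in R47H control mice. Every R47H control library lay above every WT control library. The log2 difference was 0.17 (SE 0.03, edgeR adjusted p = 0.0013, two-sided exact permutation p = 0.00216, the smallest that 6 against 6 libraries allow). Rps21 ran from 69.4 to 77.7 (median 76.3) CPM in WT control and from 81.2 to 89.2 (median 84.0) CPM in R47H control mice, again without overlap (log2 difference 0.16, edgeR adjusted p = 0.0126). For Rps27, a zinc-finger protein of the small subunit, the ranges were 43.7 to 47.3 (median 45.9) CPM and 47.4 to 53.8 (median 51.5) CPM, with 47.3 CPM as the highest WT and 47.4 CPM as the lowest R47H value (log2 difference 0.17, edgeR adjusted p = 0.0198). Rps14 ran from 103 to 111 (median 107) CPM in WT control and from 109 to 127 (median 120.0) CPM in R47H control mice. Those ranges overlapped, and the log2 difference was 0.16 (SE 0.04, edgeR adjusted p = 0.0114, two-sided exact permutation p = 0.00649).

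The 60S genes called in control mice were Rpl10 and Rpl23a. RPL10 is a late-joining protein next to the catalytic centre, and RPL23A lies at the exit of the nascent chain. Rpl10 ran from 42.3 to 46.5 (median 43.1) CPM in WT control and from 46.9 to 48.4 (median 47.8) CPM in R47H control mice, without overlap (log2 difference 0.13, edgeR adjusted p = 0.0214). Rpl23a ran from 31.9 to 36.7 (median 35.7) CPM and from 35.3 to 41.0 (median 39.5) CPM in these groups, with overlap (log2 difference 0.16, edgeR adjusted p = 0.0304, two-sided exact permutation p = 0.00866). Other genes overlap 62.3% of the exon bases of Rpl23a, and without strand in the library kit their reads cannot be told apart from its own. The call of Rpl23a was lost in 7 of 33 alternative settings, among them leaving out WT control replicate 2 or 6 or R47H control replicate 1, 2 or 6 (adjusted p 0.0567 to 0.0867). The call of each of the other 5 genes was lost in at most 2 settings and in none that left out a library.

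**Figure D2:**
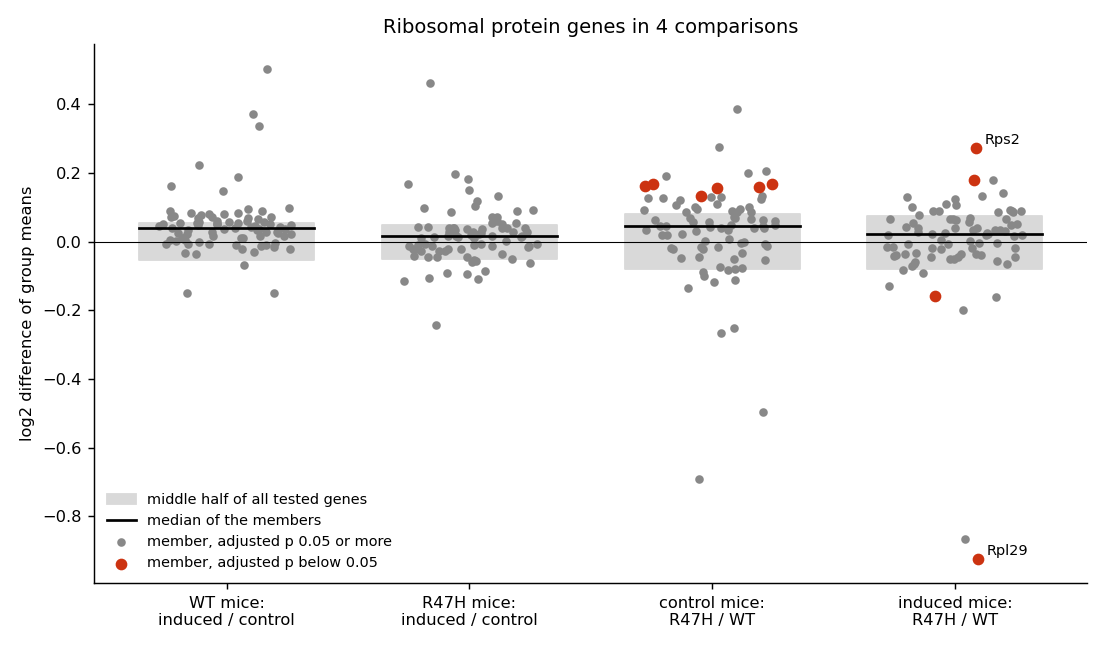
Log2 difference of group means for each tested ribosomal protein gene (points) in 4 comparisons, with the median of the members as a black line and the middle of all genes, from lower to upper quartile, in grey. Red points passed the test on composition-scaled totals, 6 higher in control mice (0 higher and 4 lower with library totals) and 4 in induced mice, where Rpl29 lies lowest.

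In induced mice, 4 ribosomal protein genes differed between R47H and WT cortex, 2 of them higher and 2 lower. They make 4.88% of the 82 tested, against 5.80% of all genes (2.59% higher and 3.22% lower). Rpl10 and Rps2 were higher and Rpl29 and Rpl13a lower in R47H mice. At an unadjusted p below 0.05, 17 of 82 members stood out, against 20.1% of all genes, and in control mice 25 of 82, against 20.5%. With library totals, Rps27 was also called higher, and Rpl13a was not called. Without R47H induced replicate 5, 2 members were called, Rpl10 and Rpl29.

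Rpl10 was the member that passed in both treatments. It ran from 41.9 to 44.5 (median 42.9) CPM in WT induced and from 45.4 to 53.8 (median 48.0) CPM in R47H induced mice, and every R47H library was above every WT library. The log2 difference was 0.18 (SE 0.03, edgeR adjusted p = 0.0016, two-sided exact permutation p = 0.00216), and it stayed past the threshold in all 33 alternative settings tried. Rps2, a 40S protein at the mRNA entry, ran from 61.1 to 77.0 (median 69.2) CPM in WT induced and from 76.2 to 88.5 (median 85.2) CPM in R47H induced mice. These ranges overlapped slightly, the difference was 0.27 on the log2 scale (SE 0.08, edgeR adjusted p = 0.0323, two-sided exact permutation p = 0.00649), and the call was lost in 8 of 33 settings. For Rps2 these included leaving out WT induced replicate 2, 3 or 6 or R47H induced replicate 2, 4, 5 or 6 (adjusted p 0.0547 to 0.0762). The control mice gave Rps2 values of 61.3 to 78.4 (median 71.97) CPM in WT and 69.7 to 90.3 (median 84.2) CPM in R47H mice, where it was not called.

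The lower genes were Rpl13a and Rpl29. Rpl13a, whose protein can leave the ribosome and repress translation of inflammatory mRNAs in human monocytes, averaged 194 ± 7.66 CPM in WT induced and 173 ± 8.60 CPM in R47H induced mice (mean ± SD, n = 6). Its lowest WT and highest R47H library were both at 184 CPM, so the groups met without crossing. The log2 difference was −0.16 (SE 0.04, edgeR adjusted p = 0.0243, two-sided exact permutation p = 0.00216), and the call was lost in 7 of 33 settings. For Rpl13a these included leaving out WT induced replicate 1, 4 or 6 or R47H induced replicate 4, 5 or 6 (adjusted p 0.0503 to 0.0676). Other genes overlap 35.4% of the exon bases of Rpl13a. Rpl29, a small 60S protein also described at the cell surface, ran from 33.2 to 37.1 (median 35.3) CPM in WT induced and from 9.15 to 21.8 (median 20.4) CPM in R47H induced mice. It showed the largest difference of all called members, −0.92 on the log2 scale (SE 0.22, edgeR adjusted p = 0.0146, two-sided exact permutation p = 0.00216), with no overlap and in all 33 settings. In control mice Rpl29 ran from 18.5 to 37.1 (median 28.001) CPM in WT and from 9.88 to 23.0 (median 21.4) CPM in R47H mice, a log2 difference of −0.50 that did not pass (edgeR adjusted p = 0.202).

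**Figure D3:**
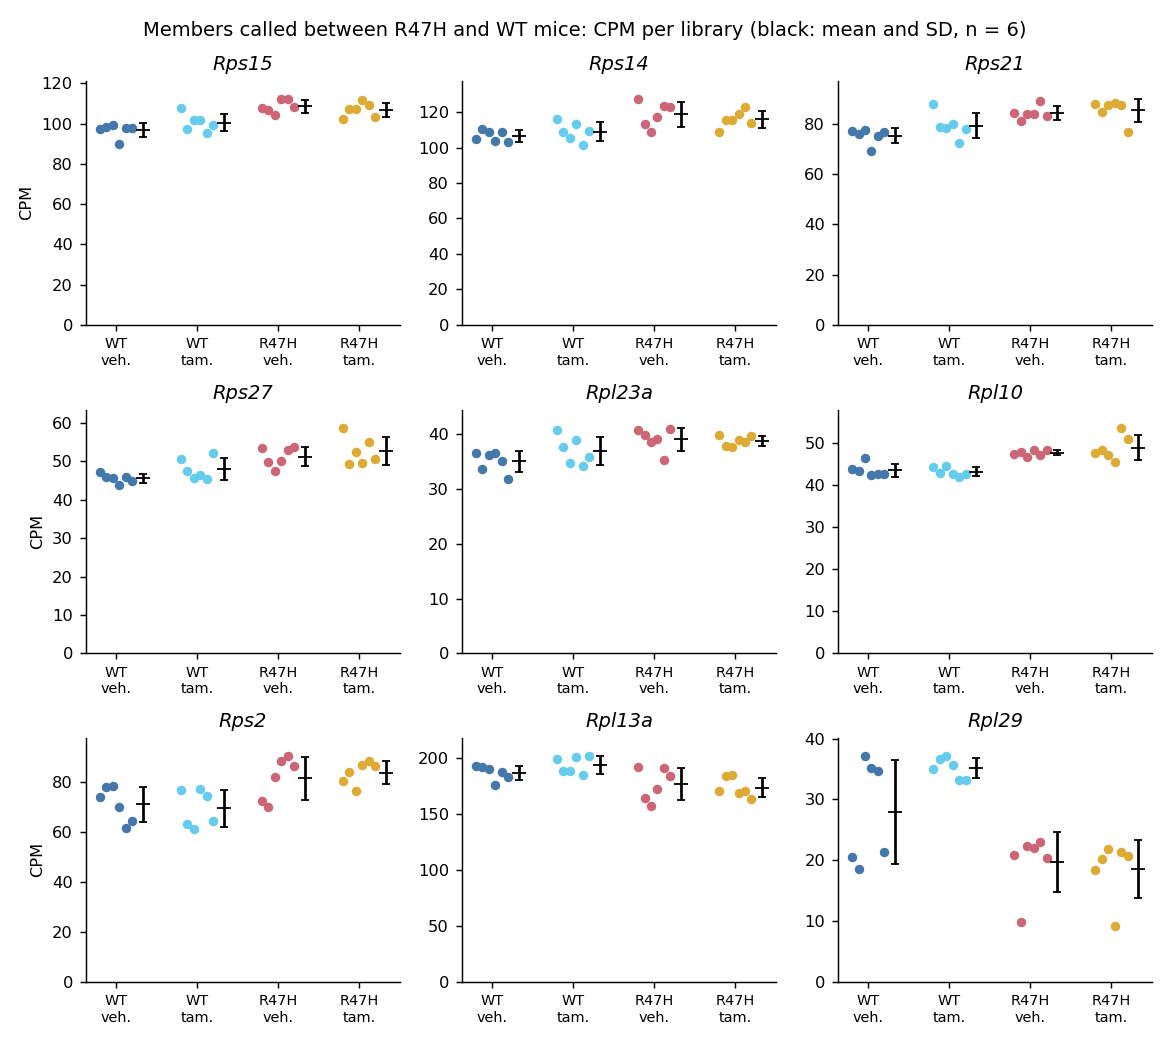
CPM per library (vertical axis, from 0) of the 9 ribosomal protein genes called between R47H and WT mice, with 6 points per group and the mean ± SD in black (veh., vehicle; tam., tamoxifen). Rps15 runs from 90.0 to 99.1 CPM in WT control and from 104 to 112 CPM in R47H control mice, and Rpl29 falls into separate levels.

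The members were also summed by subunit. The summed 40S level was 1682 ± 48.8 CPM in WT control and 1780 ± 45.9 CPM in R47H control mice, while the summed 60S level was 2561 ± 51.9 CPM and 2541 ± 55.8 CPM (mean ± SD, n = 6). Relative to plain library totals, the 40S sums were 1715 ± 94.8 CPM and 1739 ± 50.5 CPM and the 60S sums 2611 ± 134 CPM and 2483 ± 37.6 CPM, so the 40S difference shrank below the SD and the 60S difference widened. Of the 32 tested 40S genes 28 were positive, with a median log2 difference of 0.07, and of the 50 tested 60S genes 27 were positive, with a median of 0.01. Over both subunits 55 of 82 members were positive in control mice with a median of 0.05, which was −0.01 with library totals, against 49.5% of all genes, and 47 of 82 in induced mice, against 50.5%. In induced mice the medians were 0.03 for 40S and 0.01 for 60S genes, and the summed 40S levels were 1738 ± 66.1 CPM in WT and 1788 ± 41.7 CPM in R47H mice. No test was made of the subunits against each other.

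The starts of 6 of the 9 called genes are shown because a pyrimidine tract at the 5′ end is the feature by which these mRNAs are grouped. Those of Rps14, Rpl23a and Rpl29 are not shown. RefSeq promoters on GRCm38.p6 matched 63 of the 84 members, and each window below covers 60 bases before and 30 bases from the annotated start. Capitals mark a C followed by 4 or more C or T within 10 bases of the start, on the sense strand.
Rps15, chr10:80292371-80292460 (plus strand): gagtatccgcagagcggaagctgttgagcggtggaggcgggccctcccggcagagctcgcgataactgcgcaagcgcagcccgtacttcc
Rps21, chr2:180257319-180257408 (plus strand): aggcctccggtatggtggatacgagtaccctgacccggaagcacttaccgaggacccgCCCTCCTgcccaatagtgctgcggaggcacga
Rps27, chr3:90213619-90213708 (minus strand): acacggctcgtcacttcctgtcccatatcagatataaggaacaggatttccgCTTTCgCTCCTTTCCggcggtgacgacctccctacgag
Rpl10, chrX:74270756-74270845 (plus strand): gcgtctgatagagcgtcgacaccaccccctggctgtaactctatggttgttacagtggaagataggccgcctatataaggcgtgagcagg
Rps2, chr17:24720003-24720092 (plus strand): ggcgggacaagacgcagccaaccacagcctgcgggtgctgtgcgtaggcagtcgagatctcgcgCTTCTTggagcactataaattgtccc
Rpl13a, chr7:45128716-45128805 (minus strand): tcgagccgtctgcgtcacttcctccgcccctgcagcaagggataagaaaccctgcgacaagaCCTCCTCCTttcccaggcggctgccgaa
Rps21, Rps27, Rps2 and Rpl13a hold such a run, and Rps15 and Rpl10 hold none within 10 bases of the start. Runs farther from the start were not marked, and the windows of Rps15 and Rpl10 hold some. Across the 63 matched members, 50.8% hold a run of this kind, against 26.5% of 27025 promoters. The letters CTTTC occur in the same span in 15.9% of members and 2.4% of all promoters. Within 250 bases before and 50 after the start, on either strand, CCGGAAG (the core of ETS-family sites) occurs in 38.1% of members and 9.1% of all, AAGATGG (a YY1-type core) in 14.3% and 6.5%, and TATAAA in 9.5% and 14.2%. These are counts of letters and not of bound sites.

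Most ribosomal protein genes varied little among mice of the same group, about as much as other genes of like level. The within-group SD on the log2 scale had a median of 0.0784 over the tested members, 0.0783 over 8410 genes of like level and 0.116 over all tested genes. Among the steadiest were Rpl4 (0.0303) and Rps20 (0.0490), and Rpl4 stayed between 284 and 309 CPM in all 24 libraries. At the other end stood Rpl29 (0.396), Rplp0 (0.383) and Rpl37a (0.370). For 17 members the highest library was less than 1.2 times the lowest, and for 16 it was more than 1.5 times and for 8 more than 2 times the lowest.

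The members with a wide spread often had a near-identical pseudogene in the count table. By sequence search against GENCODE M21 transcripts (GRCm38), 1045 pseudogenes matched the members, up to 76 for 1 gene and at least 1 for 82 of them, and together these pseudogenes summed to 461 to 566 CPM per library. Of them, 79 reached 1 CPM in a library and 183 had no count. The 37 tested members with a counted pseudogene at 99% identity or more had a median SD of 0.106, against 0.0757 for the other 45. Of the 16 members whose libraries differed by more than 1.5 times, 10 had such a pseudogene. Adding the matched pseudogenes' CPM brought the SD below 0.6 times its value in 9 of the tested members, 6 of them among these 16. Added CPM that does not vary would also lower an SD on the log2 scale, and this part was not separated. Rpl29, Rplp0 and Rpl37a are named for their spread, and the other members and the pseudogenes in the next paragraphs were chosen after their values were seen.

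**Figure D4:**
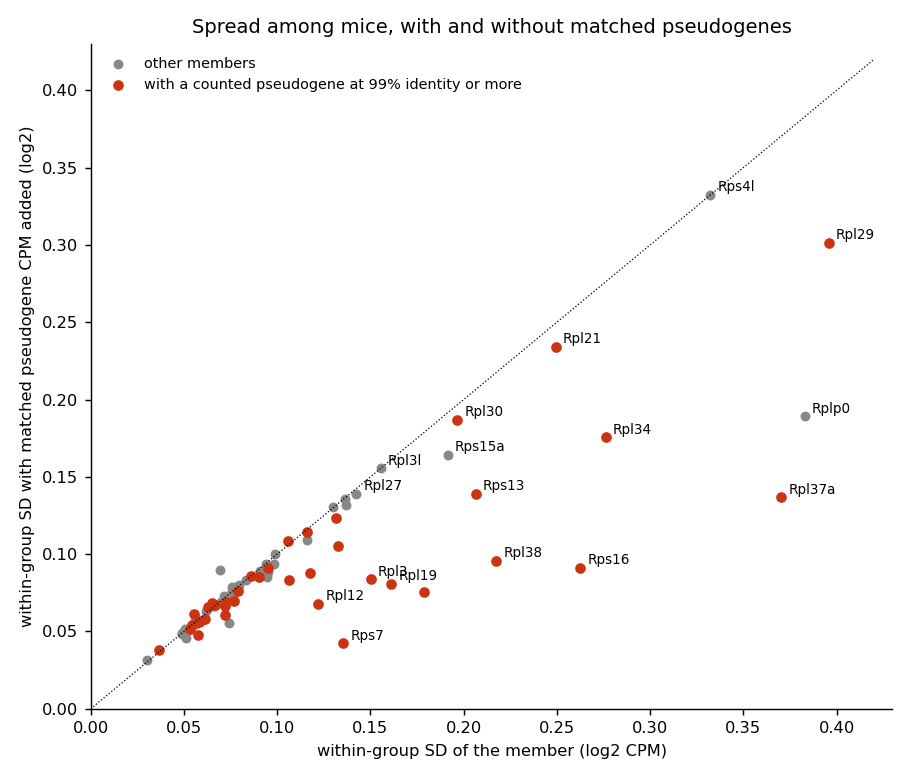
Within-group SD of log2 CPM for each tested ribosomal protein gene alone (horizontal axis) and with the CPM of its matched pseudogenes added (vertical axis), with the line of equality dotted. Red points have a counted pseudogene at 99% identity or more, and Rpl37a moves from 0.370 to 0.137 while Rpl29 moves from 0.396 to 0.301.

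Rpl37a fell into separate levels that mirrored those of the pseudogene Gm4149. In 17 libraries Rpl37a lay between 18.2 and 23.9 CPM while Gm4149 lay between 12.7 and 16.8 CPM. In the other 7 libraries, from all 4 groups, Rpl37a lay between 31.1 and 39.7 CPM while Gm4149 lay between 5.81 and 6.98 CPM. No library lay between the levels. The coding sequences differ at 1 of 276 positions, T198C, counted from 1 at the A of the start codon, with the base of Rpl37a first. The stretch around it is shown, as spliced GENCODE sequence on GRCm38, with the differing base in capitals. Rpl37a lies at chr1:72711260-72713809 and Gm4149 at chr13:75644864-75645226.
Rpl37a, coding bases 162 to 233: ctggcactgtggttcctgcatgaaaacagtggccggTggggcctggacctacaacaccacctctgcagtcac
Gm4149, coding bases 162 to 233: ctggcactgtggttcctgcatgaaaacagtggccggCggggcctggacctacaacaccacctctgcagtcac
A read that does not cover this base fits both genes within the coding sequence. The sources used here do not say how the authors counted reads with more than 1 match, and the part of this in the levels was not tested.

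The same mirror pattern appeared in other pairs. Rpl38 lay between 15.2 and 17.4 CPM in 3 libraries, where Rpl38-ps2 lay between 16.5 and 19.7 CPM. In the other 21 libraries Rpl38 lay between 21.0 and 28.8 CPM and Rpl38-ps2 between 8.30 and 11.03 CPM. Their coding sequences are identical over 210 bases, and so are those of Rps16 and Rps16-ps2 over 438 bases. Rps16 was lowest, at 13.5 CPM, in WT control replicate 5, where Rps16-ps2 was highest, at 21.8 CPM. Rpl19 stood at 26.5 CPM in R47H induced replicate 1 with Rpl19-ps11 at 18.8 CPM, while the other 23 libraries had 39.3 to 48.1 CPM and 9.37 to 12.01 CPM. In each of these pairs the library low for the gene was high for its copy. With pseudogenes added, the SD of Rps16 went from 0.263 to 0.0912, that of Rpl38 from 0.217 to 0.0956 and that of Rpl19 from 0.161 to 0.0808.

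A wide spread did not always have a mirror image. Rpl21 ran from 45.3 to 67.7 (median 57.8) CPM in WT induced and from 34.2 to 71.4 (median 57.5) CPM in R47H induced mice, and its SD of 0.249 was 0.234 with pseudogenes added.

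Rplp0 had 3 separate levels, and the R47H control mice were mostly on the lowest. It lay between 27.5 and 33.2 CPM in 7 libraries, between 46.6 and 56.7 CPM in 11, and between 66.2 and 74.997 CPM in 6. Its copy Gm9625, 97.5% identical in the coding sequence, ran from 11.96 to 14.8 CPM, from 6.23 to 9.70 CPM and from 1.88 to 2.58 CPM in those libraries. The lowest level held 0 of 6 WT control, 1 of 6 WT induced, 4 of 6 R47H control and 2 of 6 R47H induced mice, and the highest held 3, 1, 0 and 2. The log2 difference of R47H from WT control mice was −0.69 (SE 0.22, edgeR adjusted p = 0.0719). DESeq2 (adjusted p = 0.0297), limma-voom (adjusted p = 0.0335) and edgeR on library totals (adjusted p = 0.0436) called Rplp0 lower there. With pseudogenes added, the SD of Rplp0 went from 0.383 to 0.189.

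Rpl29, the largest difference called, also had separate levels, and its copy Gm8210 was low throughout. Rpl29 lay at 9.15 and 9.88 CPM in 2 R47H libraries, between 18.3 and 23.0 CPM in 13 libraries and between 33.2 and 37.1 CPM in 9. Those 9 libraries were all 6 of WT induced and 3 of WT control mice, and the 13 were 3 of WT control, 5 of R47H control and 5 of R47H induced mice. Gm8210 ran from 1.83 to 2.44 CPM, from 0.670 to 1.89 CPM and from 0 to 0.213 CPM at the 3 levels of Rpl29. The ranges of Gm8210 at the lower levels of Rpl29 overlapped, and all spanned far fewer CPM than Rpl29. Gm8210, at chr1:43189156-43189638, differs from Rpl29, at chr9:106429454-106431568 (GRCm38), at 3 of 480 coding positions (C72A, C300T and T423C), each leaving the amino acid as it is. The first is shown, in capitals.
Rpl29, coding bases 36 to 107: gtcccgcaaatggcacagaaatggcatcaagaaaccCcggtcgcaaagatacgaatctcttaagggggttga
Gm8210, coding bases 36 to 107: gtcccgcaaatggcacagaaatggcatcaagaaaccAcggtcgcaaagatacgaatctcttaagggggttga
Gm8210 was itself called higher in R47H than in WT induced mice, by 3.75 on the log2 scale (SE 0.74, edgeR adjusted p = 0.00354). With matched pseudogene counts added to the members, Rpl29 still differed, by −0.77 (edgeR adjusted p = 0.00848), and its SD was 0.301.

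**Figure D5:**
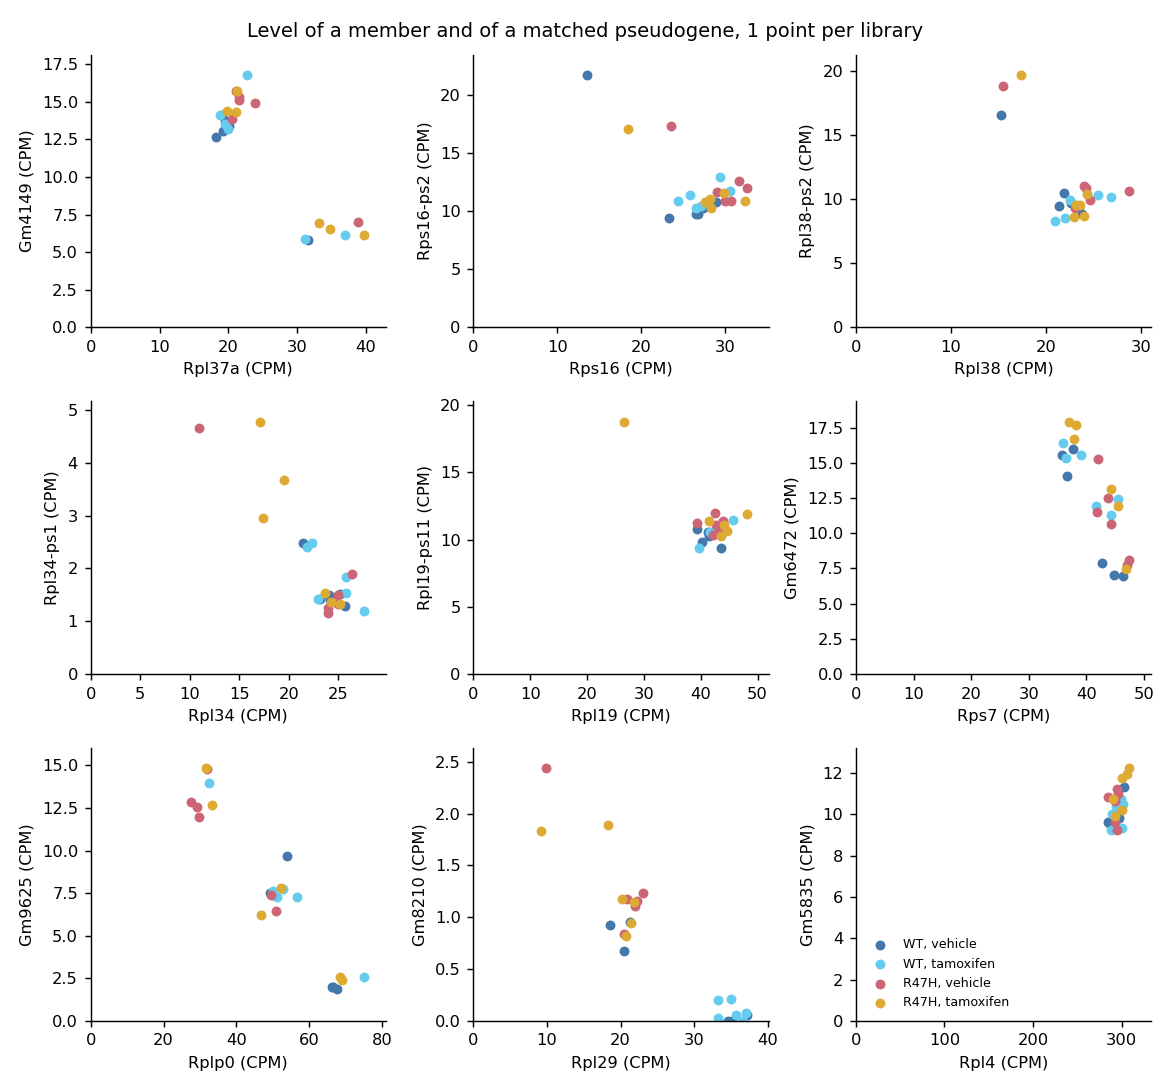
CPM of a ribosomal protein gene (horizontal axis) against CPM of a matched pseudogene (vertical axis) in 9 pairs, with 1 point per library coloured by group. In the pair of Rpl37a and Gm4149, 17 libraries have 18.2 to 23.9 CPM of Rpl37a with 12.7 to 16.8 CPM of the pseudogene, and 7 have more of the gene and less of the pseudogene.

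A pseudogene could also differ between the lines while its parent did not. Gm11942, a copy of Rplp1, lay between 15.5 and 34.0 CPM in the 12 R47H libraries. It lay between 0.752 and 1.31 CPM in WT libraries other than WT control replicate 1, which had 14.8 CPM. It was called higher in R47H mice in both treatments, by log2 differences of 2.79 in control (edgeR adjusted p = 0.00404) and 4.37 in induced mice (edgeR adjusted p = 0.000277). Rplp1 itself ran from 139 to 161 (median 146) CPM in WT control, 138 to 159 (median 155) CPM in WT induced, 141 to 151 (median 147) CPM in R47H control and 138 to 157 (median 148) CPM in R47H induced mice. These 4 ranges overlapped throughout. Of the 79 matched pseudogenes that reached 1 CPM in a library, 2 were called in induced mice and 4 in control mice, all higher in R47H. Over all genes, 5.80% and 5.74% were called. The 4 included Rps15-ps2 (log2 difference 0.28, edgeR adjusted p = 0.000675), a copy of the called gene Rps15. Pseudogenes taken by a ribosomal protein name, with no bound on CPM, numbered 58 tested. Of these, 2 were called higher and 1 lower in R47H control mice, and none in induced mice.

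The ribosomal protein genes tended to vary together among mice of a group. After group means were removed, the correlation of a member with the mean of the others over 24 libraries was positive for 75 of 82 members, with a median of 0.431. It was highest for Rpl39 (0.784), Rps19 (0.712) and Rps14 (0.707), and lowest for Rpl30 (−0.290), Rps4l (−0.259) and Rpl3 (−0.255). The median was 0.488 for members without, and 0.350 for members with, a counted pseudogene at 99% identity or more. All points share their library and its depth, so these are descriptions. The same correlation was not computed for other genes, so it cannot be called particular to these. Rpl30 stood at 34.2 and 37.6 CPM in R47H induced replicate 6 and WT induced replicate 5 and between 21.1 and 26.9 CPM elsewhere, while its copy Gm12191 had 1.202 to 1.39 CPM in those 2 libraries.

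Among genes that serve the ribosome, calls were made between the lines and none in the inductions. The counts below stand beside 2.59% of all genes higher and 3.22% lower in induced mice, and 2.69% higher and 3.04% lower in control mice. Of 30 translation factors and other terminal oligopyrimidine mRNAs, 2 were higher and 2 lower in R47H than in WT induced mice, and 1 was higher and 1 lower in control mice. Gas5, a non-coding RNA with such a tract, was lower in both, with log2 differences of −0.37 (edgeR adjusted p = 0.000133) and −0.39 (edgeR adjusted p = 9.5e-05). Naca and Btf3, whose proteins bind nascent chains at the ribosome together, were higher in induced R47H mice by 0.17 and 0.20 on the log2 scale. Of 49 ribosome biogenesis genes, 3 were lower in induced mice and 5 in control mice, with none higher. Polr1a and Polr1d, subunits of RNA polymerase I, were among them in both, and Polr1b was lower in control mice, with a log2 difference of −0.22 (edgeR adjusted p = 0.00657). Among 27 regulators of ribosomal protein synthesis, Rptor, the mTOR complex subunit, was lower in induced mice (log2 difference −0.12), and Rps6kb2, an S6 kinase, was lower in control mice (−0.34). By comparison, of 77 mitochondrial ribosomal protein genes, 3 were higher and 1 lower in induced mice and 2 higher and 1 lower in control mice.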

How the data were processed

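Whole-cortex RNA of 24 mice was measured in 4 groups of 6. Per the labels' protocols, libraries were poly-A selected with the TruSeq RNA Sample Prep Kit v2. Per the submitters' processing notes, the authors used STAR 2.5.2b, mm10 and featureCounts 1.5.1, and deposited raw read counts per gene. The sources used here do not give the annotation release, the strand setting or the treatment of reads with several matches. Replicate numbers follow accession order and only name a mouse.

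Counts of 19678 genes passing filterByExpr were fitted in R 4.3.3 with edgeR 4.0.16 (TMM, robust glmQLFit and glmQLFTest), with 24 libraries in 1 fit, Benjamini-Hochberg adjustment over all genes tested and calls at an adjusted p below 0.05. CPM use TMM-scaled totals, and spreads and permutation tests use log2(CPM + 0.5). Exact permutation tests were two-sided over 924 assignments. Pseudogenes were matched with blastn 2.17.0 at 80% identity over 50% of their transcript. Alternatives used DESeq2 1.42.0, limma 3.58.1 (voom), other scalings and filters, an rRNA-like covariate and each library left out. The fit was tested on simulated counts. Within groups, all 60 pairs of libraries differed by more than counting noise (chi-square per degree of freedom 4.60 to 67.8), and none was merged.

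Members named are those called, the 6 of lowest p per comparison, the 5 highest and 5 lowest per length, untested ones, the stalk and second-copy genes, 7 well-known members and the 3 of largest and smallest spread. Results for some named items are not reported here. Members and lists were chosen with earlier results of these data known.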

Additional observations from a re-analysis of the deposited data

Results flagged for a closer look

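In 12 of 140 sets of 6 libraries examined (each named member that had counts, in each group), 1 library lay far from its group, with a gap to the nearest other library above the critical share of the range in Dixon's test. Chance gives about 5% of sets that are independent and not chosen for their spread. These sets share libraries, and some members, Rpl29 and Rpl37a among them, were named for a wide spread. Rpl29 was low in R47H control replicate 2 at 9.88 CPM (others 20.4 to 23.0) and in R47H induced replicate 4 at 9.15 CPM (others 18.3 to 21.8). Rpl37a was high in WT control replicate 1 at 31.5 CPM (others 18.2 to 20.1) and in R47H control replicate 2 at 38.8 CPM (others 20.5 to 23.9). Both genes are among those with separate levels across all groups.

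WT control replicate 4 was low for 2 of the genes called in control mice, Rps15 at 90.0 CPM (others 97.3 to 99.1) and Rps21 at 69.4 CPM (others 75.3 to 77.7). Rpl10 was high in WT control replicate 3 at 46.5 CPM (others 42.3 to 43.8). Rps21 was low in R47H induced replicate 6 at 76.6 CPM (others 84.7 to 88.3). Rpl17 was high in WT induced replicate 1 at 49.6 CPM (others 43.8 to 46.0), and Rpl22l1 in R47H induced replicate 1 at 35.4 CPM (others 27.0 to 29.6). Rpl4 was low in R47H control replicate 3 at 284 CPM (others 292 to 296), and Rpl7 in WT control replicate 2 at 72.1 CPM (others 82.2 to 87.4).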

How the results depend on the processing

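With library totals and no composition factor, the median log2 difference of the ribosomal protein genes was 0.000587 for induction in WT mice, 0.0687 for induction in R47H mice, 0.0678 for the difference of the inductions and −0.0147 for R47H against WT control mice. In the difference of the inductions, this setting, which moved the median of all genes by about as much (to 0.0942), turned Rps20 to 0.00345 and Rps15 to 0.0155. On raw totals, the log2 ratio of the members' share of counts was −0.0055 for induction in WT mice, 0.0763 for induction in R47H mice and −0.0347 for R47H against WT control mice, from 0.0349, 0.0225 and 0.0259 on scaled totals. With the share of rRNA-like reads added to the model, 2 members were called between R47H and WT control mice, and with DESeq2 9. Leaving out each library in turn, ribosomal protein genes called between R47H and WT numbered 2 to 5 in induced mice and 5 to 7 in control mice. With WT induced replicate 6 left out, 3 members were called between R47H and WT induced mice and 0 for induction in WT mice. The cause of these shifts was not tested.

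No member was called in the inductions or their difference under any alternative run. Of 918 alternative values for 28 pairs of a named member and a comparison, 878 kept direction and side of the threshold, 30 lost the call, 8 gained it and 2 changed sign. Pairs not called in the main fit, among them all those of the inductions, have no call to lose. Of the called pairs, Rps2 in induced mice lost the call in 8 of 33 settings. Rpl13a in induced and Rpl23a in control mice lost it in 7 each. No paired analysis was possible because the replicate numbers follow accession order and pair no mice across groups. Depth limits Rpl3l, with 249 counts in all, and Rpl39l, with 48.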

Other observations

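The ribosomal proteins whose human genes are mutated in Diamond-Blackfan anaemia gave 1 call among 18 genes, Rps27, higher in R47H than in WT control mice. Of 9 proteins at the nascent chain's exit tunnel, Rpl23a was the 1 called, in control mice. Neither list gave a call in induced mice or in the inductions. The 5 ribosomal protein genes outside the name series gave no call in any comparison. In induced mice 5.80% of all genes were called and in control mice 5.74%. Of 83 nuclear-encoded respiratory chain genes, 5 were higher and 0 lower in induced R47H mice, and 7 were higher and 1 lower in control R47H mice, each against WT.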
